A study of Homo sapiens with 5 samples.

Results

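Knockdown of histone deacetylase 6 (HDAC6) by a short hairpin RNA was compared with a control hairpin in TOV21G cells, a human cell line from an ovarian clear cell carcinoma. One library was made from each condition, shHDAC6 and shControl, so the comparison has 1 sample a side, no replicates and no test. Every gene row that reached 5 CPM (reads of the gene relative to all reads of its library, rescaled) in either library was compared, which took in 10909 of 28442 rows. ACBD4 lay just inside that floor, at 3.31 and 5.01 CPM in the control and knockdown libraries, and ALPK2 lay just outside it, at 4.998 and 3.22 CPM. Both lines received a virus with a puromycin resistance gene and were selected in 1 µg/ml puromycin, and the cells grew in RPMI medium with fetal bovine serum. The labels name a pair of HDAC6 hairpins without saying which one this library carried, and they do not say whether the cells were a clone or a pool or how long after infection RNA was taken. The same series holds 3 libraries without a hairpin label, from cells given the drug vehicle or the HDAC6 inhibitors ACY1215 or CAY10603. Those 3 are used below to show where the hairpin libraries stood among the 5, in the order shControl, shHDAC6, vehicle, ACY1215 and CAY10603. They also set an alternative floor, and vehicle is the base for the HDAC6 level of ACY1215. They are never a control for the knockdown.

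HDAC6 is a mainly cytoplasmic deacetylase. Unlike the class I enzymes, which act on histones in the nucleus, it removes acetyl groups from alpha-tubulin, cortactin and the chaperone HSP90, and it carries ubiquitinated proteins towards aggresomes. Ovarian clear cell carcinoma is known for loss of ARID1A, which belongs to the SWI/SNF remodelling complexes of chromatin, and TOV21G is a line that lacks ARID1A protein. A hairpin acts by lowering its target transcript, so the level of that transcript is the first check of the label.

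The shControl library held 57442767 counts and the shHDAC6 library 51563718, within the range of the 5 libraries (43498805 to 57442767). Rows with a count numbered 18571, 18719, 22189, 21031 and 21265 in the 5 libraries, so both hairpin libraries held fewer than the others. The reason for that difference was not tested. Levels are given in CPM after scaling by the trimmed mean of M values, and a log2 fold is that of shHDAC6 over shControl with a prior count of 2. The 95% interval beside a fold is an exact binomial one and covers counting error only, not differences between cultures. Of all 10909 genes, 96 (0.88%) differed at least 2-fold, with 63 higher (0.578%) and 33 lower (0.303%) in shHDAC6. At least 1.5-fold apart were 323 genes on the higher side (2.96%) and 287 on the lower side (2.63%). Scaling by total counts alone gave 426 higher and 206 lower, since the median log2 fold of all genes then moved from -0.02 to 0.03. At any size, 5182 genes (47.5%) were higher in shHDAC6. The shHDAC6 library was the highest of the 5 in 27.7% of genes and the lowest in 21.5%, and shControl was the highest in 23.9% and the lowest in 11.6%. These shares are the background for every count below.

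**Figure D1:**
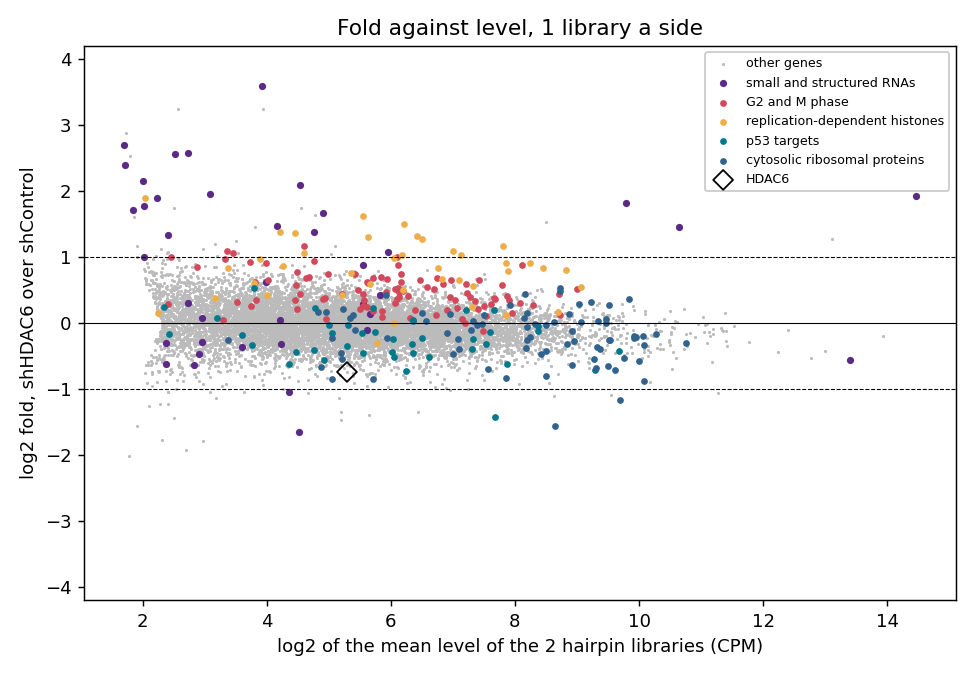
Log2 fold of shHDAC6 over shControl (vertical axis) against the log2 of the mean level in CPM (horizontal axis) for genes with a count in both libraries, 1 point a gene; dashed lines mark 2-fold. Above 0 lie 39 of 40 histone genes and 28 of 39 small RNAs, but 12 of these small RNAs reached the floor in shHDAC6 only. HDAC6 (diamond) lies at -0.74, and 6 rows with a count of 0 in 1 hairpin library are not drawn.

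The HDAC6 transcript (Entrez 10013) was lower in shHDAC6 than in shControl. It stood at 49.0, 29.3, 50.1, 32.9 and 47.9 CPM in the 5 libraries, from 2765 counts in shControl and 1539 in shHDAC6. The shHDAC6 level was 59.8% of the shControl level (95% counting interval 56.2% to 63.7%), a log2 fold of -0.74. The authors' FPKM gave 17.1 and 10.1, a log2 fold of -0.75. Only 112 of the 10909 genes (1.03%) had a fold as low as this or lower. The ACY1215 library, which was not given a hairpin, had an HDAC6 level close to that of shHDAC6, at 65.7% of vehicle.

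The other histone deacetylases differed less. Of 15 deacetylases and sirtuins at the floor, 10 were higher and 5 lower, and HDAC6 was the one at least 1.5-fold apart. HDAC8, a class I enzyme, followed at -0.36 and the nuclear sirtuin SIRT7 at -0.35, while HDAC5 and HDAC3 stood at 0.28 and 0.22. Among 14 genes for HDAC6 substrates and partners, 7 were higher and 7 lower, and none passed 1.5-fold. The deubiquitinase gene CYLD was at -0.48, the cortactin gene CTTN at -0.38 and HSP90AA1 at -0.26. All 4 alpha-tubulin genes at the floor were on the higher side, with a median log2 fold of 0.29. TUBA1B, the most abundant of them by count, stood at 762, 929, 811, 437 and 753 CPM, and TUBA4A at 30.2, 42.0, 38.4, 51.9 and 37.7 CPM. For TUBA1B the shHDAC6 level was the highest of the 5, whereas for TUBA4A it was exceeded by ACY1215. After centring the folds by mRNA GC content (described at the end), 7 of 15 tubulin genes were higher in place of 11, so the direction of that list depends on the centring. These are transcript levels, and tubulin acetylation was not measured.

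No SWI/SNF subunit passed 1.5-fold, with 8 of 18 higher and a median of -0.05. ARID1A RNA was present in every library, at 9.43, 11.8, 9.27, 9.02 and 10.4 CPM, with a log2 fold of 0.32 (0.16 to 0.49). Its paralog ARID1B stood at 52.4, 51.3, 42.9, 39.95 and 51.4 CPM. The label of the cells was checked against markers of clear cell carcinoma. Of 20 such markers 10 reached the floor, among them ANXA4, GPX3, SPP1 and PAX8, and 10 did not, NAPSA and KRT7 among them. The serous markers WT1, ESR1, PGR and MUC16 were under the floor. Of the markers of leukocytes, endothelium, fibroblasts and red cells, COL1A2 alone reached it, at 24.1, 22.2, 22.5, 31.5 and 33.5 CPM.

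Genes of the G2 and M phases, which drive entry into and passage through mitosis, made up the most uniform group. All 93 reached the floor and 92 were higher in shHDAC6. Of the 93, 2 reached the floor in shHDAC6 only, both in the subgroup of regulators. At least 1.5-fold higher were 32 (against 2.96% of all genes), at least 2-fold higher were 4, and none was 1.5-fold lower. The median log2 fold was 0.44, against -0.02 for all genes, and 1 member was on the lower side, CEP55 at -0.12. The 4 members past 2-fold were ESPL1, CDCA3, CDC25C and PIF1. ESPL1 encodes separase, which cuts cohesin at anaphase, CDCA3 a trigger of mitotic entry, CDC25C the phosphatase that activates CDK1, and PIF1 a DNA helicase. Their promoters from RefSeq (GRCh38.p14), 250 bases before to 50 after the start, are shown because the group shares short sequences there. Capitals mark TTTGAA, the core of the cell cycle genes homology region through which such genes are repressed outside mitosis, and CCAAT, the NF-Y box, each on either strand. For CDC25C the one of 4 listed starts with the most matches is shown.
ESPL1, chr12:53268049-53268348, plus strand: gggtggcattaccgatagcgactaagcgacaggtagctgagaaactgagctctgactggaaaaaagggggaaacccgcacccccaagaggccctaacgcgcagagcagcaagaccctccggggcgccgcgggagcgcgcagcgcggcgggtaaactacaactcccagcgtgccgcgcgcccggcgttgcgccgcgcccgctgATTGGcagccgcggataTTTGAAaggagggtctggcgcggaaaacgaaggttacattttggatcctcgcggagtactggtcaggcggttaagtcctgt
CDCA3, chr12:6851237-6851536, minus strand: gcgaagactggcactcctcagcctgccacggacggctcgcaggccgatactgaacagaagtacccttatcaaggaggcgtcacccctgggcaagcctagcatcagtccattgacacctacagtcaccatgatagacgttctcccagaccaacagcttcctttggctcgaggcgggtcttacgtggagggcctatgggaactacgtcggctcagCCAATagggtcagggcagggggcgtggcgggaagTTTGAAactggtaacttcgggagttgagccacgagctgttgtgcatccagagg
CDC25C, chr5:138331828-138332127, minus strand: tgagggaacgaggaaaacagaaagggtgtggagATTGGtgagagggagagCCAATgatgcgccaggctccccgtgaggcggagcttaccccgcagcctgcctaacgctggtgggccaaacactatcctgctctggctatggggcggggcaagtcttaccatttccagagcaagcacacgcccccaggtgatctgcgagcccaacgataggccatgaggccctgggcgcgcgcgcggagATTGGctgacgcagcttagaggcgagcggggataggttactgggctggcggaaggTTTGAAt
PIF1, chr15:64825598-64825897, minus strand: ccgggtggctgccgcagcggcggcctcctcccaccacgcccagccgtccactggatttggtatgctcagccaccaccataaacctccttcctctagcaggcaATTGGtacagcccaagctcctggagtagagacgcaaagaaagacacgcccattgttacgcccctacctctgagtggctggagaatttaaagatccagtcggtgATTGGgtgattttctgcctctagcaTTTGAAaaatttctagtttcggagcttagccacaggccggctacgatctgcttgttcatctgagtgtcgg

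Of the 93 genes, 81 matched a promoter, and 54 of these (66.7%) held TTTGAA in at least 1 listed promoter, against 13.7% of 8812 genes at the floor and 18.2% of all 27305 genes with a promoter. CCAAT was found in 57 (70.4%), against 44.5% and 39.7%, and both motifs in 38 (46.9%), against 5.89% and 7.26%. The motifs were not particular to the mitotic list. Of 38 replication-dependent histone genes with a promoter, 42.1% held TTTGAA, 78.9% CCAAT and 28.9% both. The letters alone did not go with a higher level. Of 470 genes outside the mitotic and histone lists that held both, 228 (48.5%) were higher and 10 (2.13%) were at least 1.5-fold higher, close to the 46.1% and 2.07% of genes that held neither.

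Among the printed genes, ESPL1 stood at 14.99, 33.8, 22.2, 8.49 and 19.98 CPM, a log2 fold of 1.17 (1.05 to 1.29) by counts. By the authors' FPKM its log2 fold was 0.88, which is under 2-fold. CDCA3 stood at 6.58, 14, 10.3, 3.75 and 9.52 CPM, a log2 fold of 1.09. CDC25C stood at 7.04, 14.8, 15.5, 4.87 and 15.2 CPM, a log2 fold of 1.07. PIF1, in the subgroup of regulators, had a log2 fold of 1.00 and so lay at the edge of the 2-fold cut. For ESPL1 and CDCA3 the shHDAC6 library was the highest of the 5, but for CDC25C it lay beside vehicle and CAY10603, and shControl was low. CDC20, the activator of the anaphase-promoting complex, came just under 2-fold at 45.5, 91.1, 55.5, 25.6 and 48.8 CPM. That gene was 1.5-fold or more above all 4 other libraries in shHDAC6. The kinase genes PLK1 (log2 fold 0.68), TTK (0.70), AURKB (0.69) and BUB1 (0.63) and the kinesin genes KIF18B (0.85), KIFC1 (0.74) and KIF20A (0.68) were also past 1.5-fold. CCNB1, the mitotic cyclin, differed less, at 283, 341, 320.5, 159.9 and 333 CPM (0.27).

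The geometric mean over the 93 genes was 51.0, 70.9, 71.5, 31.9 and 70.1 CPM in the 5 libraries. The shHDAC6 level was thus beside vehicle and CAY10603, with shControl below these 3 and above ACY1215. The shHDAC6 library was the highest of the 5 in 33 of the 93 genes and shControl the lowest in 2. All 5 subgroups of the list were on the higher side, with medians from 0.31 for the regulators to 0.55 for the kinases and cyclins. After GC centring 91 members were higher and 35 passed 1.5-fold, so the count did not fall. In a bulk sample, more cells in a phase and more RNA per cell cannot be told apart.

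**Figure D2:**
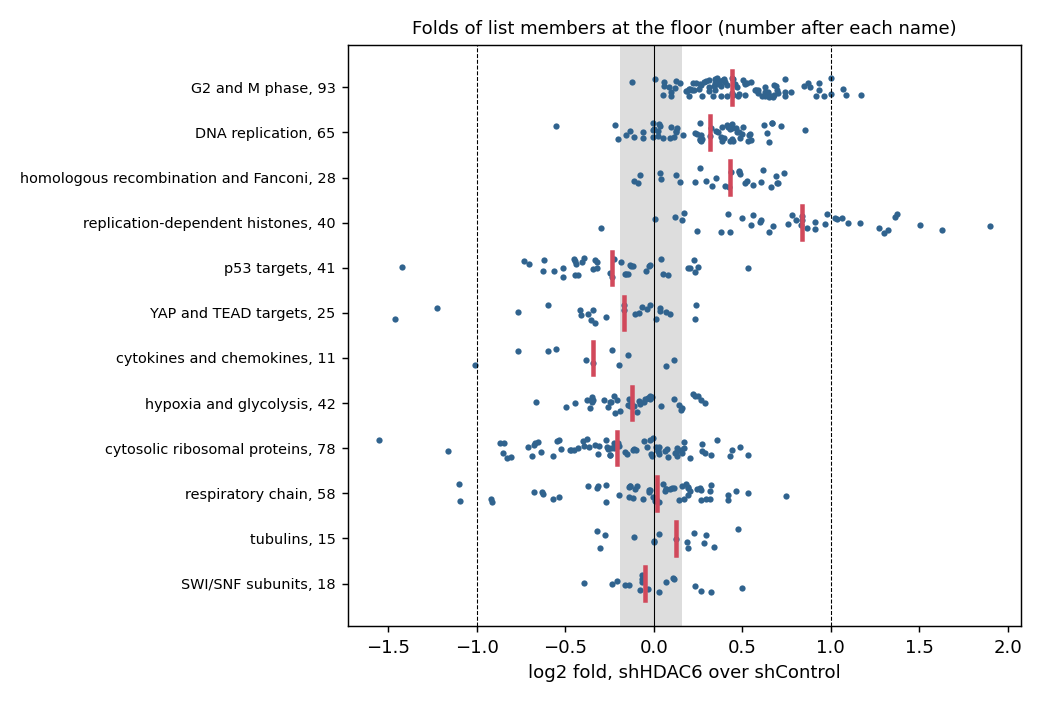
Log2 fold of shHDAC6 over shControl (horizontal axis) for the members of 12 gene lists that reached the floor, 1 point a gene, with the list median in red, the middle 50% of all genes in grey and dashed lines at 2-fold. The G2 and M phase and histone lists lie almost wholly to the right of 0 and most p53 targets to the left.

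DNA replication genes were also higher, by less. Of 65, 54 were higher and 7 at least 1.5-fold higher, with a median of 0.32. ASF1B, a histone chaperone of the replication fork, stood at 13.2, 23.9, 20.6, 7.84 and 20 CPM, a log2 fold of 0.85 (0.73 to 0.99). GINS2 of the replicative helicase was at 0.72, MCM7 of the same helicase at 0.67, and ATIC, a purine synthesis enzyme, at -0.55. Origin licensing genes (median 0.38) and fork genes (0.38) stood above nucleotide synthesis genes (0.04). Of 28 genes for homologous recombination and the Fanconi pathway, 25 were higher, with a median of 0.43. FANCD2 stood at 40, 66.5, 65.4, 24.1 and 59.5 CPM (0.73), and BARD1, the partner of BRCA1, at 22.1, 35.9, 33.4, 20.9 and 31.3 CPM (0.70). Both showed the order of the mitotic genes, in which shHDAC6 was close to vehicle and above shControl. Mismatch and other repair genes differed little, with a median of 0.05 over 20.

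Replication-dependent histone genes, whose mRNAs are made in S phase and end in a stem-loop in place of a poly(A) tail, had the largest group fold among coding genes. Of 69 listed, 40 reached the floor, 39 of them were higher, 28 at least 1.5-fold and 13 at least 2-fold. Of the 40, 2 reached it in shHDAC6 only, and both were histone H4 genes. Against 0.578% of all genes past 2-fold on that side, HIST1H4A was at 1.90, HIST1H4K at 1.63 and HIST1H3A at 1.37. HIST1H4K stood at 22.8, 70.5, 56.7, 25.8 and 49.8 CPM, and HIST1H3B at 49.2, 123, 86.8, 28.1 and 80.9 CPM. For both the shHDAC6 level was the highest of the 5, and vehicle and CAY10603 were next. The core histone H4 genes had the highest median (1.18 over 10), then H3 (0.98), H2B (0.83), H2A (0.80) and the linker histone H1 (0.60). The H4 median includes the 2 genes that entered by being high in shHDAC6. HIST1H4A, the largest fold named here, is one of them (1.72 CPM with the control hairpin, 6.52 with the other). The H4 median was not computed without them, so the rank of H4 is uncertain. One gene was on the lower side, HIST3H2A at -0.30. The geometric mean was 46.7, 81.9, 70.9, 29.4 and 63.3 CPM in the 5 libraries, and shHDAC6 was the highest of the 5 in 27 of the 40 genes. These copies are near-identical in sequence, so the split of reads among single histone genes is uncertain. The whole class took 0.365% of shControl counts and 0.619% of shHDAC6 counts. The stem-loop binding protein SLBP, which stabilises these mRNAs, was at 0.06. Total RNA was sequenced in all libraries, per the labelled kit.

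**Figure D3:**
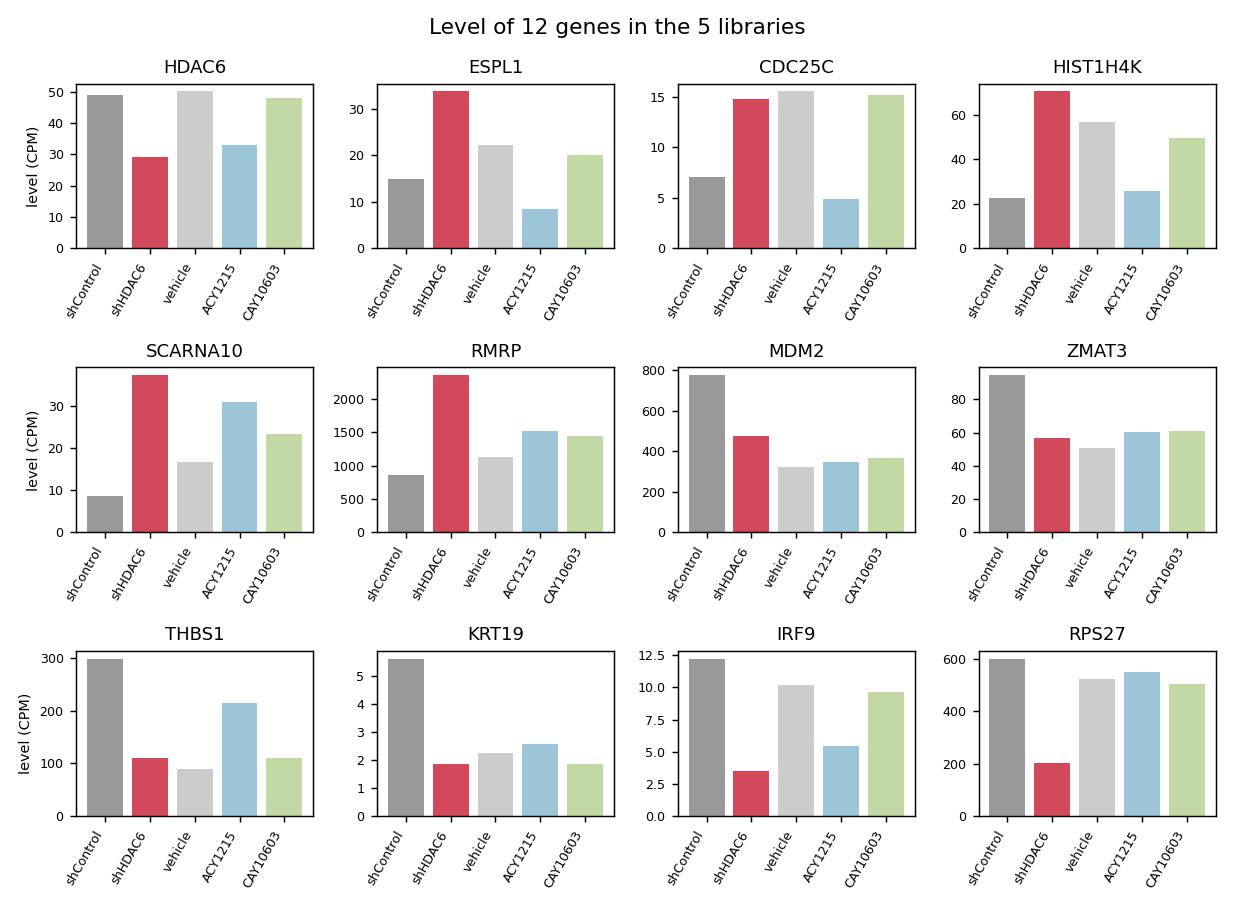
Level in CPM (vertical axis, from 0) of 12 genes in the 5 libraries, 1 bar a library and 1 library a treatment, with no replicates. ESPL1, HIST1H4K, SCARNA10 and RMRP are highest in shHDAC6, RPS27, IRF9 and HDAC6 lowest in it, and MDM2, ZMAT3 and THBS1 highest in shControl.

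Targets of p53, the damage-response factor, were mostly lower in shHDAC6. Of 41 at the floor, 32 were lower, 5 at least 1.5-fold lower (2.63% of all genes) and none 1.5-fold higher, with a median of -0.24. The shControl library was the highest of the 5 in 29 of the 41, against 23.9% of all genes. MDM2, the ubiquitin ligase that limits p53, stood at 775, 476, 320, 345 and 368 CPM, a log2 fold of -0.70 (-0.73 to -0.68). ZMAT3, an RNA-binding target, stood at 94.4, 56.9, 50.5, 60.5 and 61.1 CPM (-0.73). TRIM22 stood at 24.9, 16.1, 11.8, 4.61 and 9.60 CPM (-0.63). For these 3 genes shControl stood apart from the rest, and the shHDAC6 level was close to or above those of the 3 libraries without a hairpin. RPS27L was at -0.62 and THBS1, which also belongs to the matrix list, at -1.42. CDKN1A, the p21 inhibitor of cyclin-dependent kinases, hardly differed, at 337, 326, 151, 204 and 154 CPM. BAX, a pro-apoptotic member, was on the higher side at 0.53. The geometric mean of the list was 67.1, 56.6, 44.95, 46.1 and 45.3 CPM, so both hairpin libraries lay above the other 3. Puromycin selection and the virus cannot be told apart from the hairpins in that order, since the labels tie infection and selection to the hairpin cells.

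Among regulators of the G1 phase, CDKN2A was lower (7.55, 4.15, 3.50, 10.5 and 7.18 CPM, log2 fold -0.86, -1.10 to -0.62). Of 5 CDK inhibitor genes at the floor, 2 reached it in shControl only, CDKN2A among them. CDKN1B, which encodes the p27 inhibitor, was higher (34.5, 56.4, 55.9, 35.5 and 48.6 CPM, 0.71). Of 13 E2F and pocket protein genes, 11 were higher, with E2F1 at 0.62 and E2F2 at 0.60. WEE1, the kinase that holds CDK1 inactive, was at 0.65.

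Of 25 targets of YAP and TEAD, the transcription factors of the Hippo pathway, 18 were lower and 4 at least 1.5-fold lower, with a median of -0.17. IGFBP3, a binding protein of insulin-like growth factors, stood at 53.7, 19.5, 20.1, 71.8 and 26.2 CPM, a log2 fold of -1.46 (-1.57 to -1.36). ANKRD1 stood at 6.77, 2.88, 3.04, 11.99 and 3.15 CPM (-1.22), and CRIM1 at 520, 305, 346, 654 and 442 CPM (-0.77). In all 3, shHDAC6 was the lowest of the 5 but within reach of vehicle, and ACY1215 was the highest. ANKRD1 was the 1 listed target that reached the floor in shControl only. The most used readouts of this pathway, CTGF and CYR61, were at -0.08 and -0.35. In the list of matrix, integrin and protease genes, 30 of 46 were lower and 2 at least 1.5-fold lower, while the TGF-beta list had 16 of 23 lower with 1 past 1.5-fold and the Wnt list 11 of 20 higher. From these 3 lists, THBS1, a matrix glycoprotein, stood at 298, 111, 89.5, 216 and 110 CPM (-1.42), TGFBI at 97.2, 58.9, 50.3, 82.7 and 66.8 CPM (-0.72) and the Wnt antagonist SFRP1 at 53.2, 30.5, 33.1, 51.4 and 34.0 CPM (-0.80). Each of these 3 was highest in shControl.

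A second kind of pattern set shHDAC6 itself apart. IGFBP7, an abundant secreted protein, stood at 3349, 1612, 2941, 3887 and 3529 CPM (-1.06), FSTL1 at 1512, 812, 1316, 1580 and 1479 CPM (-0.90), and the metallothionein MT2A at 193, 106, 215, 353 and 254 CPM (-0.86). In each the other 4 libraries were at least 1.5-fold above shHDAC6. Over all genes, shHDAC6 was 1.5-fold or more above all 4 others in 65 and below all 4 in 58, while shControl was so in 23 and 21. Of the 323 genes at least 1.5-fold higher in shHDAC6, it was the highest of the 5 in 267, and shControl was the lowest in 120. Of the 287 at least 1.5-fold lower, shHDAC6 was the lowest of the 5 in 210, and shControl was the highest in 144.

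Cytokine and hypoxia genes were lower as well. Of 11 cytokine and chemokine genes at the floor, 9 were lower, with CXCL5 at 165, 82.0, 112, 186 and 122 CPM (-1.01), IL6 at 63.04, 37.0, 41.1, 56.9 and 44.9 CPM (-0.77) and IL18 at -0.60. The NF-kappaB factor genes themselves were not, with 10 of 13 higher. Of 18 hypoxia response genes 17 were lower, mostly by little. NDRG1 stood at 84.2, 53.2, 61.1, 112 and 65.1 CPM (-0.66), CA12 at -0.49 and VEGFA at -0.35. Glycolysis genes had no common direction, from TPI1 at -0.44 to ALDOA at 0.29.

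Interferon response genes, a frequent concern with hairpin RNAs, showed no common shift. Of 52 at the floor, 23 were higher and 29 lower, with a median of -0.04, and the genes of the RNA interference machinery had a median of 0.05. IRF9 stood apart on the lower side. It encodes the DNA-binding subunit of the interferon-activated factor ISGF3 and stood at 12.2, 3.52, 10.2, 5.46 and 9.60 CPM. Its log2 fold was -1.78 (-2.03 to -1.55) by counts and -0.90 by the authors' FPKM, so its size depends on the unit. IRF9 was also the 1 interferon gene that reached the floor in shControl only. TYK2, a kinase of the interferon receptor, was higher at 0.70.

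Apart from the histone genes, 19 protein-coding rows were at least 2-fold higher, and 4 of the 19 were in the G2 and M phase list. GPR85, an orphan brain receptor, stood at 10.7, 36.04, 14.9, 18.6 and 23.5 CPM, a log2 fold of 1.75 (1.62 to 1.88). SLITRK4, a neuronal adhesion protein, stood at 13.3, 41.4, 18.8, 22.1 and 29.4 CPM (1.63), and LOC100505876, now named CEBPZOS in RefSeq, at 188, 540, 240, 300 and 418 CPM (1.53). The 3 genes shared one order of libraries, with shHDAC6 highest, CAY10603 next and shControl lowest. ETV4, a PEA3-family factor downstream of MAP kinases, stood at 21.3, 44.3, 28.4, 30.6 and 25.4 CPM (1.05). LIN28A, a repressor of let-7 microRNA maturation, stood at 40.5, 69.7, 31.7, 35.4 and 34.6 CPM (0.78) and was named after its values were seen, because shHDAC6 lay apart from all 4 others. On the lower side were ZBED2, at 10.2, 2.69, 2.38, 6.24 and 4.61 CPM (-1.92), and KRT19, an epithelial keratin, at 5.60, 1.87, 2.25, 2.59 and 1.87 CPM (-1.57). Both were highest in shControl, and their shHDAC6 levels were close to those of vehicle or CAY10603. Both were under 5 CPM in shHDAC6 and so entered by being high in shControl. EPCAM, an epithelial adhesion protein, was at -0.61, STEAP3, an iron reductase, at 7.76 and 3.87 CPM in the hairpin pair, and CP, the copper oxidase ceruloplasmin, at -0.71. STEAP3 too reached the floor in shControl only.

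Genes for the cytosolic ribosome were lower in part. Of 78, 52 were lower, 13 at least 1.5-fold lower and none 1.5-fold higher, with a median of -0.21. RPS27 stood at 600, 204, 524, 552 and 506 CPM, a log2 fold of -1.55 (-1.59 to -1.52). RPL22 stood at 1139, 509, 1152, 1250 and 1271 CPM (-1.16), and RPL31 at 1394, 762, 1537, 1600 and 1470 CPM (-0.87). In these 3 genes shHDAC6 alone was low and the other 4 libraries lay together, unlike the mitotic and p53 genes. The shHDAC6 library was the lowest of the 5 in 48 of the 78, against 21.5% of all genes. Subunits of the same particle did not move together, since 26 members were higher. Ribosomal protein genes have many processed copies in the genome, so the share of their reads assigned to each row is uncertain.

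The nuclear genes of the respiratory chain had no common direction. Of 58, with a median of 0.02, 31 were higher and 27 lower, but 7 were at least 1.5-fold lower and 1 at least 1.5-fold higher. COX6C, a subunit of cytochrome oxidase, stood at 541, 253, 495, 573 and 552 CPM (-1.10), and COX7C at 489, 260, 443, 537 and 521 CPM (-0.91). COX8A, of the same complex, was higher, at 13.8, 23.3, 20.5, 13.8 and 21.5 CPM (0.75). Of 70 mitochondrial ribosomal protein genes, a list added after values were seen, 43 were lower. At least 2-fold lower were 4, MRPS18C (-1.34), MRPL12 (-1.25), MRPS25 (-1.14) and MRPS17 (-1.05). Of the 70, 2 reached the floor in shControl only, MRPL12 among them (6.04 CPM in shControl and 2.51 CPM in shHDAC6). Short mRNAs held more of the low folds. Among 298 coding genes with an mRNA under 1000 nt, 8.72% were at least 1.5-fold lower and shHDAC6 was the lowest of the 5 in 33.6%, against 1.51% and 19.9% of the 2056 genes at 6000 nt and over. Ribosomal protein genes at 1000 nt and over were at least 1.5-fold lower in 8 of 52 (15.4%), against 2.04% of other coding genes of that length. The length is that of the annotated transcript with the longest coding part, which gave RPL37A 3647 nt and RPS23 3437 nt. Whether that transcript was the one expressed was not tested, so this comparison cannot separate membership of the ribosome from mRNA length.

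Small structured RNAs held many of the large folds, in both directions. Some are transcribed from their own genes and others are cut from introns, and they guide the modification of other RNAs, splice introns or target proteins. Of 39 rows at the floor, 28 were higher and 11 lower in shHDAC6, but 12 of the higher rows reached 5 CPM in shHDAC6 only and so entered by being high there. With the floor set instead on the mean of the 3 libraries without a hairpin, an alternative chosen after this was seen, 17 of 27 rows were higher and 10 lower. Of these 27, 11 were at least 1.5-fold higher and 4 at least 1.5-fold lower, with a median of 0.29. The authors' FPKM gave 24 of the 39 rows higher and 13 lower. Sequences from GENCODE 29 (GRCh38) are shown for 6 of them, so that members of one box class with opposite folds can be set side by side. Capitals mark the last ACA in the H/ACA RNAs, the first TGATGA (box C) and the last CTGA (box D) in the C/D RNAs, and the Sm protein site AATTTTTG in RNAs of the minor spliceosome.
SNORA38, chr6:31623079-31623210, plus strand: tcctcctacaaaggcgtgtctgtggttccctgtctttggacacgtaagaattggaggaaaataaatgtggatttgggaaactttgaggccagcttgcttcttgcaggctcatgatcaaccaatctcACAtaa
SCARNA16, chr17:77089307-77089493, plus strand: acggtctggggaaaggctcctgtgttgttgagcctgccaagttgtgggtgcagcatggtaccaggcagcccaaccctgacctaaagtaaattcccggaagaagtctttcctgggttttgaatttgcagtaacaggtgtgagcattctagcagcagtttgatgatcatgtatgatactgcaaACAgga
SNORD17, chr20:17962710-17962946, minus strand: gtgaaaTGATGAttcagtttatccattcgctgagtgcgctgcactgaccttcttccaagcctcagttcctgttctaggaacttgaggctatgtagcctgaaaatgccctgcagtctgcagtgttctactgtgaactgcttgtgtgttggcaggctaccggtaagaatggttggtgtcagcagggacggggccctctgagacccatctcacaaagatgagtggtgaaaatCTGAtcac
SNORD8, chr14:21397292-21397401, minus strand: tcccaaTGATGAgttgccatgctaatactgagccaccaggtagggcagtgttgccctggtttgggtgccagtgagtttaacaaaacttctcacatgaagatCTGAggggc
RNU4ATAC, chr2:121530881-121531007, plus strand: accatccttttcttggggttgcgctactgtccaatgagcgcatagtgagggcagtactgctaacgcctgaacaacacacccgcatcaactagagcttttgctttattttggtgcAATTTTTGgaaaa
RNU12, chr22:42615244-42615393, plus strand: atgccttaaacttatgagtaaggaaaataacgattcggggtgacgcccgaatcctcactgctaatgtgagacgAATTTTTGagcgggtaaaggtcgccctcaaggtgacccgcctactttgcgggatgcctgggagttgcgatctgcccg

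In both H/ACA RNAs 3 bases follow the marked ACA. SNORA38 stood at 1.03, 5.56, 1.65, 1.58 and 1.17 CPM (log2 fold 2.39, 2.03 to 2.87), and SCARNA16, which resides in Cajal bodies, at 1.88, 11.4, 2.55, 4.40 and 3.13 CPM (2.57). SNORD17 stood at 3.46, 13.5, 4.82, 5.62 and 5.24 CPM (1.96), but SNORD8, with the same boxes, stood at 27.5, 13.3, 32.3, 34.5 and 32.4 CPM (-1.04). In each of the 4, shHDAC6 lay outside the range of the other libraries. RNU4ATAC and RNU12, small nuclear RNAs that splice the rare U12-type introns, stood at 1.45, 6.57, 1.83, 2.84 and 2.57 CPM (2.15) and at 14.3, 45.6, 27.1, 32.4 and 32.2 CPM (1.67).

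The folds of the 6 printed RNAs were smaller in the authors' FPKM where they were positive (SNORA38 1.79, SNORD17 1.59, RNU12 1.08) and larger for SNORD8 (-1.78). Rows that reached the floor in shHDAC6 only were 4 of 10 H/ACA RNAs, 3 of 10 Cajal body RNAs, 3 of 4 spliceosomal RNAs and 1 of 10 C/D RNAs, so no direction is given for these classes. Of 5 RNAs made by RNA polymerase III, U6 alone was under the floor in shControl. U6, of the spliceosome, stood at 2.27, 27.9, 3.59, 4.89 and 4.69 CPM (3.60, or 2.87 by FPKM), and RPPH1, the RNA of ribonuclease P, at 389, 1378, 423, 739 and 527 CPM (1.83). RMRP, of a related ribonuclease, stood at 860, 2355, 1126, 1514 and 1443 CPM (1.45). Metazoa_SRP, the row of the signal recognition particle RNA, stood at 9438, 35744, 13074, 28593 and 17522 CPM (1.92). The one lower RNA of this class was 7SK, which holds the elongation factor P-TEFb inactive, at 12887, 8722, 12096, 12051 and 11060 CPM (-0.56). By the authors' FPKM the log2 folds were 1.60 for RPPH1, 1.13 for RMRP, 1.64 for Metazoa_SRP and -0.85 for 7SK. The sizes of these folds thus depend on the unit, and the reason was not tested. These RNAs took 2.32% of shControl counts and 4.91% of shHDAC6 counts, against 2.79%, 4.13% and 3.05% in vehicle, ACY1215 and CAY10603. Metazoa_SRP alone went from 0.927% to 3.64%, and the rest of the class stood at 1.39% in shControl and 1.27% in shHDAC6.

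**Figure D4:**
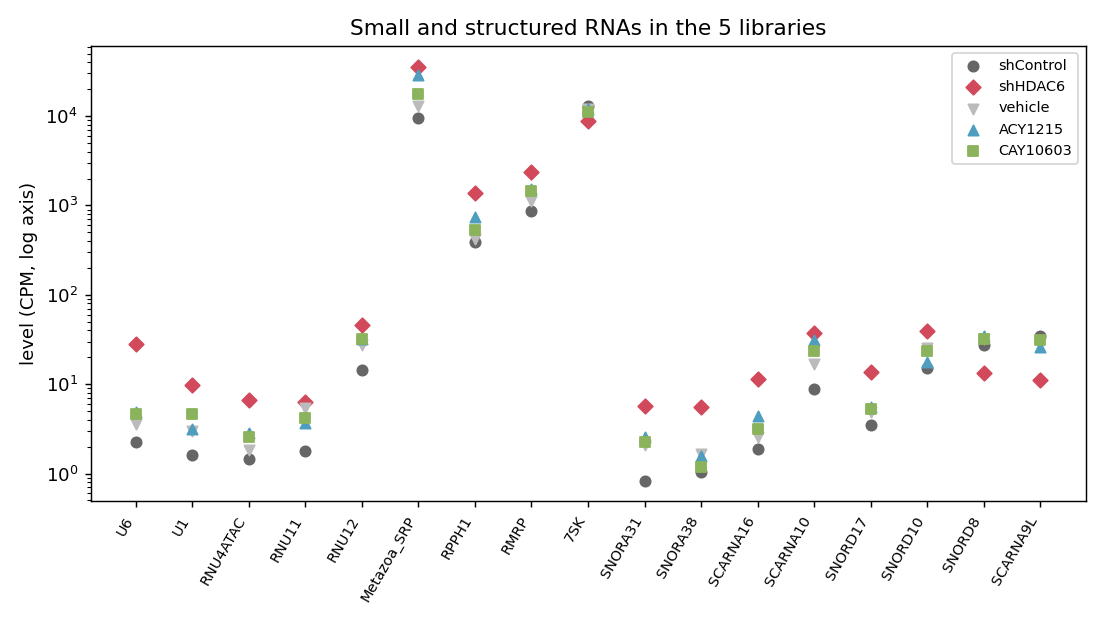
Level in CPM (vertical axis, log scale) of 17 small and structured RNAs in the 5 libraries, 1 symbol a library. The 17 are a selection with mostly large folds. In them the shHDAC6 library (red diamonds) is highest in all but 7SK, SNORD8 and SCARNA9L, in which it is lowest. Over all 39 small RNA rows at the floor it was highest in 23 and lowest in 6, and 12 of the 39 reached the floor in shHDAC6 only.

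WDR74, listed as protein-coding, was among the largest folds at high level, at 5195, 12511, 7481, 6347 and 7485 CPM (1.27, 1.26 to 1.27). In GENCODE 29 the first exon of the WDR74-204 transcript (chr11:62841569-62841809, minus strand, GRCh38) contains the whole of RNU2-2P (chr11:62841619-62841809), a copy of the U2 spliceosomal RNA, on the same strand. Reads from that small RNA and from WDR74 therefore cannot be told apart in this row.

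Several of the extreme folds belonged to rows that share exons with another row or are copies of it. ERCC5, a DNA repair endonuclease, had 7017 counts in shControl and 2561 in shHDAC6 (-1.35), but the read-through row BIVM-ERCC5 had 8767 and 11256 (0.46), and their sum had a log2 fold of -0.09. EIF3CL (-1.78) summed with its near-identical copy EIF3C gave -0.32. BSCL2 (1.61) summed with HNRNPUL2-BSCL2 gave -0.06, and PHOSPHO2-KLHL23 (2.53) summed with KLHL23 gave 0.28. RPL36A-HNRNPH2 (1.18) summed with its 2 component genes gave -0.23. The pseudogene GTF2IP1, with no count in shHDAC6, summed with GTF2I gave -0.09. In contrast, ATP5E (-1.09) and its read-through SLMO2-ATP5E (3.25) together stayed at -1.02. Except for ATP5E, then, these sums lay inside 1.5-fold. Of rows with 0 counts in 1 hairpin library, the unmatched clone row NGS-17 had 464 counts with the HDAC6 hairpin and 0 with the control one. It had 76, 0 and 11 in vehicle, ACY1215 and CAY10603, so a count of 0 also occurred without a hairpin. BC007880 had 810 with the control hairpin, 0 with the other, and 410, 525 and 562 in vehicle, ACY1215 and CAY10603. A count of 0 allows up to 3 counts, so no exact fold is given for either.

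The folds of coding genes moved with base composition. Across 10321 of 10329 protein-coding genes matched to a GENCODE 29 mRNA, the Spearman correlation across genes of GC content with log2 fold was 0.283, and of mRNA length with log2 fold -0.068. Genes are not independent replicates, and all share the same 2 libraries. Under 40% GC, 34.7% of 1770 genes were higher in shHDAC6, with a median of -0.09. At 60% GC and over, 71.6% of 1342 were higher, with a median of 0.17. The share of genes with shHDAC6 lowest of the 5 went from 36.7% to 5.37% over the same range. When the median fold of genes of like GC content was taken off, an alternative chosen after this relation was seen, 198 genes were at least 1.5-fold higher and 210 lower among 10380 genes. The histone list then had 38 of 40 higher and 26 past 1.5-fold, the p53 list 32 of 41 lower and the ribosomal protein list 51 of 78 lower. HDAC6 was at -0.83 on that scale.

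**Figure D5:**
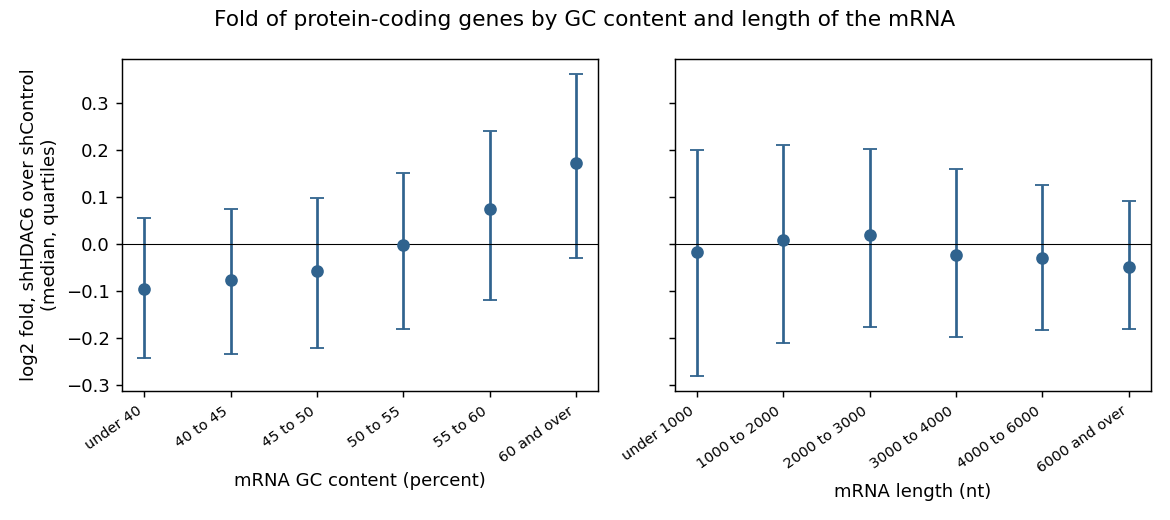
Median log2 fold of shHDAC6 over shControl (points, with quartiles as bars) of protein-coding genes by GC content (left, percent) and by length (right, nt) of the mRNA. The median goes from -0.09 in the lowest GC bin to 0.17 in the highest and stays between -0.05 and 0.02 over length.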

How the data were processed

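Total RNA from 1 TOV21G library per treatment was sequenced with a strand-keeping kit for total RNA (per the labels). The authors deposited 1 gene table holding expected counts and FPKM values, and the submitters' processing notes name RSEM 1.2.3, edgeR and the hg19 build; the labels do not state the counting settings. The deposited expected counts were whole numbers; 2 blank rows were left out. Library sizes were scaled by TMM over the 2 hairpin libraries (edgeR 4.0.16, R 4.3.3) and log2 folds took a prior count of 2. With 1 library a side no test was run; spread between cultures cannot be estimated, and Clopper-Pearson 95% intervals cover counting error only. The script was tested on simulated data with planted folds. Named genes were HDAC6, ARID1A, the 20 highest and 20 lowest protein-coding genes, the 10 highest and 10 lowest other rows, and of each list its members at least 1.5-fold apart and its 3 largest folds; further names were chosen after their values were seen. The comparison, the gene lists and this rule were chosen with earlier results of these data known. The list of mitochondrial ribosomal proteins and the small RNA classes were added after values were seen. The other 3 libraries were scaled by TMM over all 5 and brought to the same reference. mRNA length and GC came from the GENCODE 29 transcript with the longest coding part, promoters from RefSeq, matched by Entrez ID. Alternatives covered scaling (including DESeq2 1.42.0 size factors), the floor, the prior count, the counting interval, the authors' FPKM with a pseudocount of 0.1, library size without small RNA and histone rows, GC centring, and a floor set on the 3 libraries without a hairpin. Symbols that the deposited table holds as calendar dates were not named. Some genes of the lists are not reported here.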

Additional observations from a re-analysis of the deposited data

How the results depend on the processing

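The 4 counts of genes, the list counts and the folds were recomputed under 13 alternatives, 2 of them (GC centring and a floor set on the 3 libraries without a hairpin) chosen after the data were seen. Of 739 values of 61 named genes, 675 stayed inside the gene's own counting interval, and no gene that was at least 2-fold apart changed sign. Many of these values could not have left the interval. A changed floor does not alter a gene's fold, and the nearer bound lies inside the interval by construction. The share that stayed is therefore no measure of how robust the folds are. The counts moved most with the floor. At 1 CPM, 183 genes were at least 2-fold higher and 88 lower, 684 at least 1.5-fold higher and 486 lower, and 50 small RNAs were higher; without a floor these were 1316, 626, 2894, 1663 and 131. At 10 CPM, 40 genes were at least 2-fold and 209 at least 1.5-fold higher, with 17 small RNAs higher; the floor set on the libraries without a hairpin also left 17 small RNAs higher, of 27 in place of 39. Taking the nearer bound of each counting interval left 157 genes 1.5-fold higher and 152 lower, and members higher were 5 deacetylases, 7 tubulins, 9 interferon genes, 5 NF-kappaB and cytokine genes, 4 YAP targets and 17 mitochondrial ribosomal proteins. GC centring left 25 genes 2-fold and 198 genes 1.5-fold higher, and 7 tubulins higher; 10380 genes could be centred. Where fewer or more genes were tested, the count follows from that; for other changes the cause was not tested. No paired analysis was possible because each condition has 1 library, and for the same reason no replicate could be left out.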

Other observations

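Other gene lists differed little between the hairpin libraries. Genes for microtubule-associated proteins and transport motors were lower in 24 of 32, against 5727 of all 10909 genes, with MAP1B, a neuronal microtubule stabiliser, at -0.74 on the log2 scale. Genes of the unfolded protein response were lower in 16 of 22 and those of heat shock and chaperonins in 18 of 25, with medians of -0.12 for both, but scaling by total counts gave 13 of 22 and 13 of 25 lower. Proteasome subunits (12 of 31 higher) and genes of autophagy and lysosomes (16 of 38 higher) held no member 1.5-fold apart; with total-count scaling 17 of 31 proteasome genes were higher, so that direction flips. Of 11 genes of Polycomb complex 2 and its partners, 8 were higher, none by 1.5-fold. In the PI3K, AKT and mTOR list AKT2, a survival kinase, was the 1 member of 34 past 1.5-fold, at 0.61. In the lipid synthesis list SREBF1, a master regulator of fatty acid synthesis, was the 1 of 37, at 0.69. After GC centring AKT2 was at 0.52 and SREBF1 at 0.47, both inside 1.5-fold. These counts are given as values, with no test.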
